A study of Homo sapiens with 6 samples.

Results

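Tandem proximal peaks are read peaks inside the 3′ untranslated region (UTR) of a gene, upstream of the annotated end of its canonical transcript. They were taken from 1 pooled list of poly(A) 3′-seq peaks, and 6595 of its 200023 peaks (3.30%) qualified. A peak qualified when its summit lay in the 3′ UTR of the canonical transcript of a protein-coding gene, in no coding sequence, and outside the window from 200 bp upstream to 600 bp downstream of every annotated transcript end. These choices used position alone, with no cutoff on height or on the q-value. The 6595 tandem peaks fell in 3964 genes.

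The cells were IMR-32, a human neuroblastoma line. THZ531, which binds covalently to the transcriptional kinases CDK12 and CDK13 and inhibits them, was used at 400 nM. Of the 6 libraries, 2 came from the solvent DMSO, 2 from THZ531 at 2 h and 2 from THZ531 at 6 h. By the study's methods all samples were merged before peaks were found. These are taken here to be the 6 libraries, whose labels all name the list, but the methods do not say which samples were meant. As the list is pooled, a tandem peak cannot be assigned to DMSO or THZ531, no value has a replicate error, and the depth of each library is unknown. The intervals below are 95% intervals and cover counting error only.

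Most human genes can be cleaved and polyadenylated at more than 1 place. A cleavage complex reads the AATAAA hexamer or a weaker relative shortly upstream of the cut, together with U- or GU-rich sequence downstream. Use of a proximal site inside the terminal exon leaves the protein unchanged and removes the rest of the 3′ UTR, with its binding sites for microRNAs and RNA-binding proteins. Proliferating and transformed cells are known for short 3′ UTRs and neurons for long ones. Oligo(dT) primers can also anneal to A-rich stretches inside a transcript, which gives a peak where no cleavage took place.

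The sequences near the 3′ side of tandem peaks ranged from a textbook hexamer to A-rich sequence. Each is the transcribed strand of GRCh38, 30 bases from 5′ to 3′, with the hexamer in capitals. SOX11, TSC22D1 and SRPRB hold some of the tallest tandem peaks, and RBM28, UTP25 and DNAJC10 some of the largest excesses over the canonical end. RHOA is known from earlier work to end at several sites, WDR33 encodes the subunit of the cleavage complex that binds AATAAA, and CDK12 is a target of the drug. ELAVL3 is shown for the A-rich sequence around its hexamer.
SOX11, chr2:5698558-5698587, plus strand: aaaaaaaatgctAATAAAaggcagtgtact
TSC22D1, chr13:44432417-44432446, minus strand: aacttcaaatttAATAAAggaatacttacg
SRPRB, chr3:133820762-133820791, plus strand: tggctcaaagcaATTAAAtagaatgtaatg
RBM28, chr7:128304058-128304087, minus strand: gcatttaccagcAATAAAtgctttttgttt
UTP25, chr1:209852179-209852208, plus strand: taaacagatgcaAATAAAaaggaaattaca
DNAJC10, chr2:182777709-182777738, plus strand: atgatgtggcacAGTAAAcaaaccctgtta
RHOA, chr3:49359501-49359530, minus strand: agtgtatttggaAATAAAgtcagatggaaa
WDR33, chr2:127705933-127705962, minus strand: agtttttgtatgAATACAgaatgtgattta
CDK12, chr17:39533994-39534023, plus strand: gagatattgtctATTAAAtacattattttg
ELAVL3, chr19:11452506-11452535, minus strand: aagcaacaaaaaAAGAAAacacacagaaga

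Reads of this kit start at the junction with the poly(A) tail. The cleavage site of a true end thus lies at that side of the peak which faces the end of the transcript (its 3′ edge). The hexamer started 24 bp before that edge in RBM28 and in UTP25, 26 bp before it in SRPRB, and 32 and 33 bp before it in RHOA and WDR33. In ELAVL3 it started 29 bp before the edge, and 20 of 25 bases were A within the 50 bp downstream. SOX11, TSC22D1, SRPRB, RBM28, UTP25 and DNAJC10 had 5 to 14 there. The peaks of these genes were 234 to 1263 bp wide. In each, the hexamer shown lay more than 100 bp, the length of an extended read, downstream of the summit. It therefore need not be the signal of the reads at the summit.

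End peaks were present at more markers of neuroblastoma than of other cell types. All 12 adrenergic neuroblastoma markers, among them PHOX2A, HAND2, TH, DBH and MYCN, had a peak at an annotated end, with 19 to 123 reads over the summit. Of 12 markers of fibroblasts, blood, endothelium, epithelium and glia, 5 had an end peak, with 6 to 15 reads. Among genes with sequence open to the rule, a canonical-end peak was present in 10 of 11 adrenergic markers and 3 of 9 others. Over all such genes it was present in 7650 of 13103. Of those 9 other markers, 0 had a tandem peak (0 to 29.9%). That interval includes 21.95%, the share of all genes averaged by length group as described below. Reads here means the number of 100 bp extended reads over the summit, solved from the deposited fold enrichment and p-value. No peak of the list exceeded 200 reads, the number at which every start position on both strands is filled, so height counts distinct read starts, saturates, and is not an expression level.

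Tandem peaks were common in long 3′ UTRs. Of 20046 protein-coding genes, 13103 had UTR sequence that the rule could accept (20541.7 kb in all), and 30.3% of these (29.5 to 31.0) held at least 1 tandem peak. Genes with a tandem peak had a median 3′ UTR of 3189.5 bases (3104 to 3265), and genes with eligible sequence but without a tandem peak had 1388 bases (1356 to 1424). In 4 equal groups of genes by eligible length, the share of genes with a tandem peak went from 3.20% (2.65 to 3.86) through 16.7% and 37.4% to 63.7% (62.1 to 65.4). Per kb of eligible sequence, by contrast, these groups differed little, from 0.273 to 0.352 tandem peaks. Where listed genes are set against all genes of the same lengths, the shares of these 4 groups were averaged over the listed genes. The group with the most sequence ran from 2117 to 30269 eligible bases, so lengths were not matched within a group.

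Most genes with a tandem peak held only 1. A lone tandem peak was found in 2336 genes (58.9%, 57.4 to 60.5), 992 genes had 2, 392 had 3, 167 had 4 and 77 had 5 or more. Thus 64.6% of tandem peaks (63.4 to 65.7) shared their UTR with another. Neighbours in the same UTR lay a median of 897 bases apart (867 to 939), with quartiles of 479 and 1700.5 bases.

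Within the UTR, tandem peaks were denser near the stop codon. The median tandem peak lay 1589 bases (1544 to 1639) from the stop codon, or 47.1% (46.1 to 48.4) of the way along the UTR. Density was 0.403 per kb (0.373 to 0.435) in the first 250 bases and 0.435 per kb (0.399 to 0.474) in the next 250. It was 0.306 per kb (0.292 to 0.321) between 2000 and 4000 bases and 0.208 per kb (0.194 to 0.222) beyond 4000 bases. The interval of the last bin overlapped none of the others. In 10 equal parts of UTR length, density fell from 0.459 per kb (0.426 to 0.495) next to the stop codon to values between 0.275 and 0.292 in the last 5 parts, whose intervals overlapped each other.

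**Figure D1:**
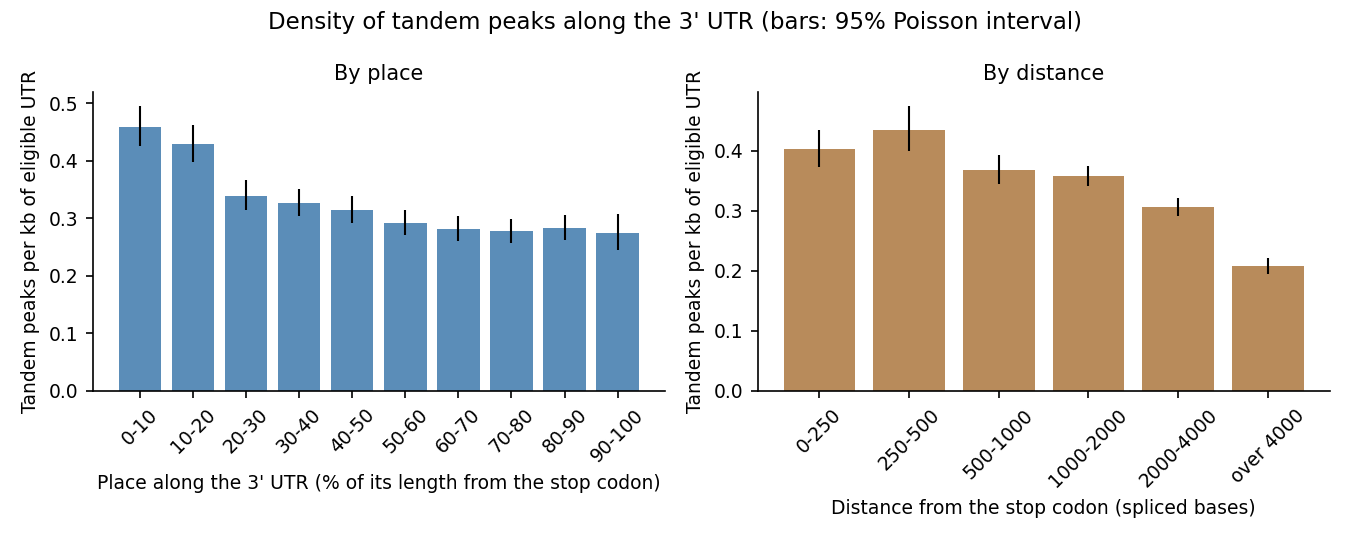
Tandem peaks per kb of eligible 3′ UTR sequence, by 10 equal parts of UTR length (left) and by spliced distance from the stop codon in bases (right), with bars from 0 and 95% Poisson intervals as error bars. The part nearest the stop codon holds 0.459 peaks per kb and the bin beyond 4000 bases holds 0.208.

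Hexamers and height did not follow the same gradient. The share of tandem peaks with a hexamer lay between 73.8% (70.6 to 76.7, from 500 to 1000 bases) and 78.7% (75.2 to 81.9, first 250 bases), and median height between 16 and 18 reads, in all 6 distance bins.

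The rule's limit passes through a region dense in peaks. Of 23284 peaks with a summit in a canonical 3′ UTR and in no coding sequence, 16689 lay in a transcript-end window and were left out. A gene without a tandem peak can therefore still have a peak at an annotated end inside its UTR. Just outside the limit, 586 peaks lay within the next 100 bp before a canonical end, with a median of 22.5 reads, and 251 of them were tandem peaks, the rest being close to the end of another transcript. Just inside it, the 488 peaks 100 to 200 bp before the end had a median of 25 reads. A wide peak can have its summit in the UTR and still run past the end: 71 tandem peaks covered the canonical end and 214 (3.24%) reached its window.

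HIF1AN, the asparaginyl hydroxylase of hypoxia-inducible factor, held the most tandem peaks, with 9 along 11864 bases of UTR. The tallest of these had 36 reads and lay 1847 bases from the stop codon, and the others had 11 to 28 reads. SMAD2, a transducer of TGF-β signals, held 8 along 32873 bases. Its peaks 143, 1488, 3327 and 8371 bases from the stop codon had 31, 25, 22 and 42 reads. The next 4, from 19108 to 28054 bases, had 7 to 12 reads, and the canonical end had 7. In SMAD2 the tall peaks were therefore all in the part of the UTR nearest the stop codon. PEX26, which anchors the import machinery of peroxisomes, showed a like order, with 46, 33 and 24 reads within 5466 bases, 8 to 19 reads from 10567 bases on, and 9 reads at the canonical end. The PEX26 peaks 15009 and 15189 bases from the stop codon lay where genes overlap on both strands, so their strand is uncertain.

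The next 9 genes had 7 tandem peaks each. SOX11 and CDK6 are described with their lists, and the other 7, which had more eligible sequence, were ARIH1 (a ubiquitin ligase), SLC35E3, the neuronal homeobox factor ONECUT2, the chondroitin sulfotransferase CHST12, the kinetochore subunit NSL1, the cleavage factor subunit CPSF2 and PUS7L. In NSL1 the peaks 623 and 1413 bases from the stop codon had 38 and 36 reads against 14 at the canonical end. In CPSF2 the tallest, 3906 bases from the stop codon, had 32 reads against 12. PUS7L had none nearer than 6332 bases to its stop codon, and its 7 peaks had 9 to 19 reads against 20 at the canonical end. CHST12 and HIF1AN had no peak at the canonical end. In CHST12, 25 of 25 bases were A downstream of the peak 658 bases from the stop codon.

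**Figure D2:**
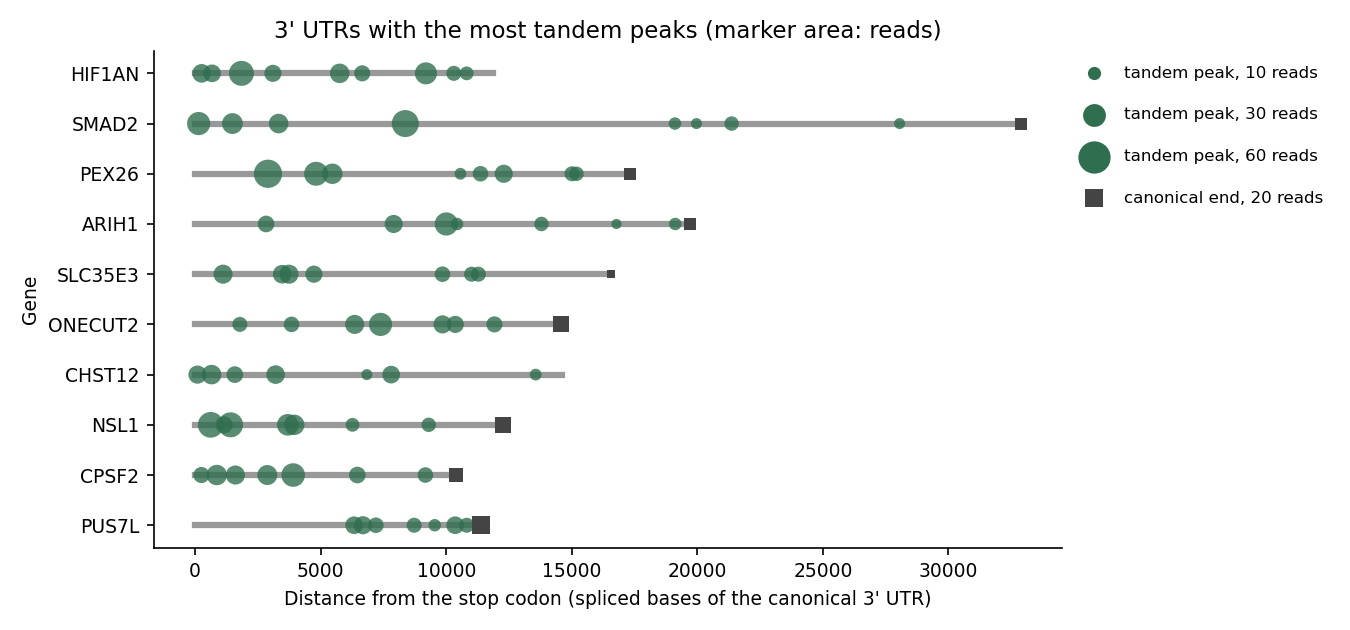
The 10 genes with the most tandem peaks, with ties at 7 broken by eligible length (which leaves out SOX11 and CDK6), each UTR drawn as a grey line from the stop codon (0) in spliced bases, with a circle for each tandem peak and a square for the tallest peak at the canonical end, both with area in proportion to reads at the summit. HIF1AN and CHST12 have no square, and in SMAD2 the 4 peaks nearest the stop codon (22 to 42 reads) are larger than the 4 others (7 to 12 reads).

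Most tandem peaks had a hexamer in the 100 bp before the 3′ edge, and fewer had AATAAA than canonical ends did. The search covered the study's 12 hexamers and the 100 bp before the 3′ edge, for the 5647 tandem peaks (85.6%) at which all genes lay on 1 strand. A hexamer was present at 76.6% of them (75.4 to 77.6). Peaks at the canonical ends of the same genes had one in 93.2% (92.1 to 94.1 of 2410), a difference of -16.6 percentage points (-18.1 to -15.1). For AATAAA alone the shares were 35.8% (34.5 to 37.05) and 68.8% (66.9 to 70.6), a difference of -33.0 points (-35.2 to -30.7).

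Hexamers were also frequent in UTR sequence at large. For the opposite strand, the window was the 100 bp that end at the other edge of the same tandem peaks. It held a hexamer in 58.8% (57.5 to 60.1) and AATAAA in 14.5% (13.6 to 15.4). Both windows cover the same bases only in peaks 100 bp wide, and the median width was 126 bp. All 17156991 windows of 100 bp that end at an eligible UTR base held a hexamer in 39.1% and AATAAA in 6.70%. Peaks in coding exons, which are also away from annotated ends, held a hexamer in 59.4% (57.9 to 60.8 of 4411) and AATAAA in 13.8% (12.8 to 14.8). Tandem peaks exceeded coding-exon peaks by 17.2 points (15.4 to 18.997) for any hexamer and by 22.03 points (20.4 to 23.6) for AATAAA. The tandem peaks thus lay between coding-exon peaks and canonical ends on both measures.

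**Figure D3:**
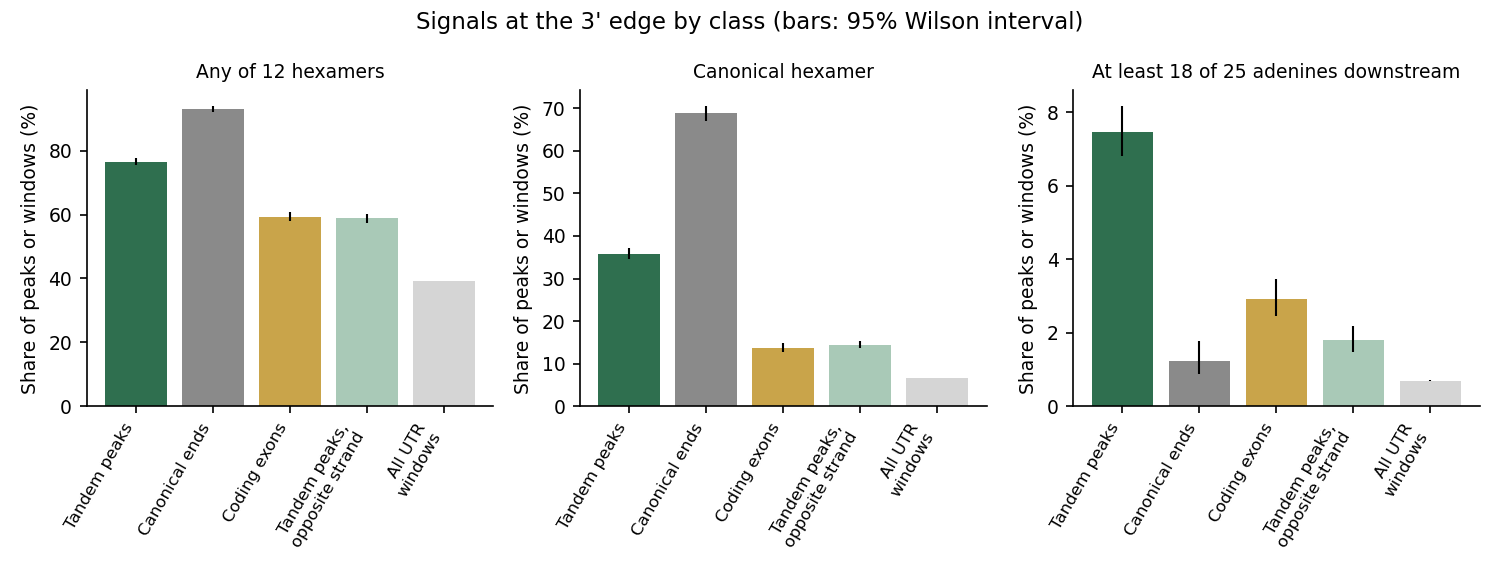
Share in percent of peaks or windows with any of the 12 hexamers (left), with the canonical hexamer (middle) and with at least 18 of 25 adenines within 50 bp downstream (right), for tandem peaks, canonical ends of the same genes, coding-exon peaks, the opposite strand of tandem peaks and all 100 bp windows of the eligible UTRs, with 95% Wilson intervals. The canonical hexamer stands at 35.8% of tandem peaks, 68.8% of canonical ends and 13.8% of coding-exon peaks. The opposite-strand window lies at the other edge of the tandem peak.

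Only some of the hexamers were more frequent than in the opposite-strand window at the other edge. AATAAA was in 35.8% of tandem windows against 14.5%, and ATTAAA in 18.5% (17.5 to 19.6) against 10.9%. AGTAAA (7.70% against 5.33%), TATAAA (11.4% against 9.93%), GATAAA (4.85% against 3.59%), AATGAA (8.75% against 7.08%) and AAGAAA (12.9% against 11.8%) exceeded it by less. AATATA (9.33% against 9.60%), ACTAAA (4.76% against 4.75%) and AATAGA (4.30% against 4.50%) differed by less than their intervals. AATACA and CATAAA were rarer in the transcribed-strand window than in the opposite-strand window, with 6.57% against 10.0% and 5.26% against 7.05%. Counting AATAAA and ATTAAA alone, 49.5% of tandem peaks (48.2 to 50.8) had a hexamer. With all 12 hexamers but a window ending at the summit, the share was 44.1% (42.8 to 45.4).

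The position of AATAAA was the one a cleavage signal takes. It was most frequent 22 bp before the 3′ edge of tandem peaks, where 2.43% of them had its first base, and 24 bp before the edge at canonical ends (5.68%). In coding exons its maximum, at 23 bp, was 0.771%. An AATAAA starting 15 to 30 bp before the edge summed to 23.6% of tandem peaks, 51.5% of canonical ends and 7.53% of coding-exon peaks. Requiring any hexamer to lie within 10 to 40 bp before the edge left 58.6% of tandem peaks (57.3 to 59.9).

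**Figure D4:**
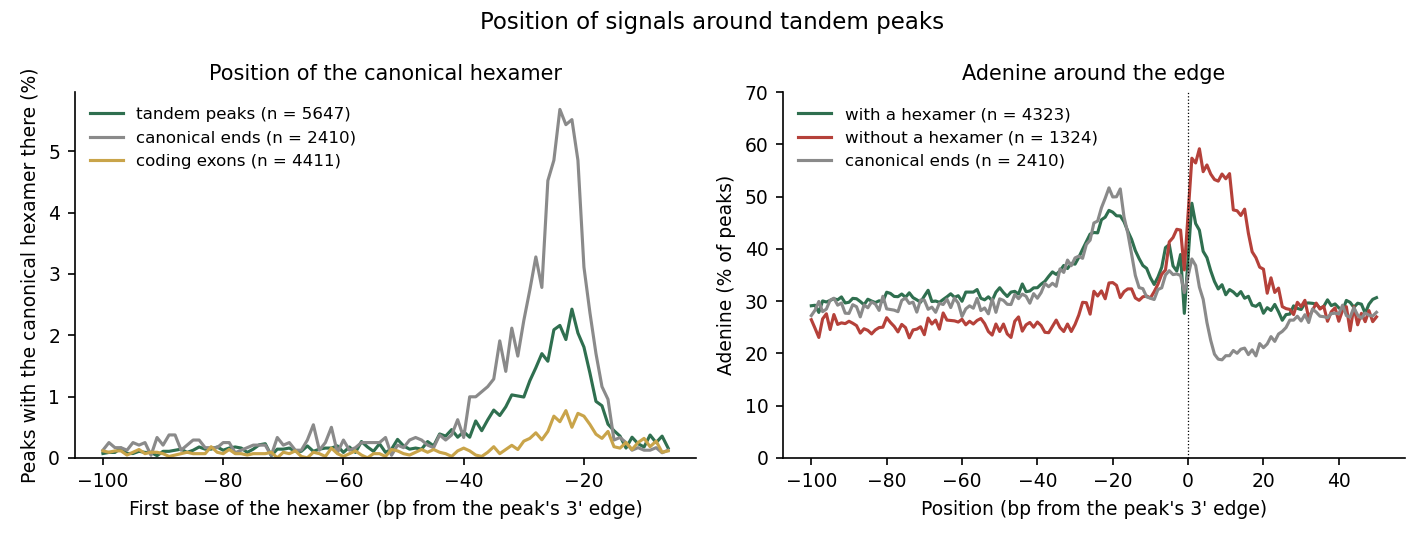
Left, the percent of peaks whose canonical hexamer starts at each position, in bp from the 3′ edge of the peak, for tandem peaks, canonical ends and coding-exon peaks. Right, the percent of peaks with adenine at each position for tandem peaks with and without a hexamer and for canonical ends. The hexamer is most frequent 22 bp before the edge of tandem peaks (2.43%) and 24 bp before that of canonical ends (5.68%), and peaks without a hexamer have the most adenine just after the edge.

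Tandem peaks without a hexamer stood out by the sequence that follows them. Over the 10 bases after the edge they had 55.2% A on average (1324 peaks), tandem peaks with a hexamer had 38.1% (4323 peaks) and canonical ends had 26.3%. Coding-exon peaks had 56.4%. In the T-rich stretch 10 to 40 bp downstream the order was the reverse, with 27.8% T without a hexamer, 35.7% T with one and 38.4% T at canonical ends. Further upstream than 40 bp, G and C made up 44.5% of bases without a hexamer and 34.5% with one. The hexamer search covered bases of this stretch too, and the hexamers are rich in A and T. A difference in this direction was therefore fixed in part by the grouping.

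A-rich stretches of the genome followed a minority of tandem peaks. By the study's definition, at least 22 A of 25 within 50 bp downstream, 1.40% of tandem peaks (1.12 to 1.74) had one, against 0.456% (0.255 to 0.815) at canonical ends and 0.295% (0.172 to 0.504) in coding exons. With at least 18 A of 25 the share was 7.47% (6.82 to 8.19), against 1.24% (0.873 to 1.77) and 2.92% (2.47 to 3.46). Tandem peaks had more such stretches than either class, with intervals that did not overlap. A hexamer without 18 A of 25 was present at 73.1% of tandem peaks, 4.02% had the stretch without a hexamer, and 19.4% (18.4 to 20.5) had neither.

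Taller tandem peaks carried hexamers more often and A stretches less often. The share with a hexamer was 68.2% (64.8 to 71.5) at 3 to 9 reads, 74.6% at 10 to 19, 81.7% (79.9 to 83.4) at 20 to 39 and 79.1% (74.9 to 82.8) at 40 or more. Stretches with 18 A of 25 went from 10.5% (8.46 to 12.9) to 2.76% (1.55 to 4.88) over the same range. At canonical ends the hexamer share instead was lowest in the tallest bin, at 82.7% (77.5 to 86.9). Tall peaks were also wide: the median width of tandem peaks was 102 bp at 3 to 9 reads and 262.5 bp at 40 or more, and the hexamer found there started a median of 24 and 35 bp before the edge. The part of this widening in the shares was not tested.

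Order along the UTR went with the canonical hexamer where a gene had 3 tandem peaks. In those 392 genes AATAAA was present at 22.8% (18.7 to 27.5) of the tandem peaks nearest the stop codon, 33.5% (28.8 to 38.7) of the middle ones and 36.7% (31.7 to 41.9) of the last. The share with any hexamer was 75.2%, 75.4% and 74.2%. In the 992 genes with 2 tandem peaks the AATAAA shares were 36.0% (32.9 to 39.3) and 41.2% (37.98 to 44.6), whose intervals overlapped. Median heights were 17 to 19 reads at every place in the order.

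In the same gene, AATAAA at the canonical end alone was the most common arrangement. Comparing the tallest tandem peak and the tallest canonical-end peak of 2309 genes with both on 1 strand, 1022 genes (44.3%, 42.2 to 46.3) had AATAAA at the end only, 607 (26.3%) at both, 245 (10.6%, 9.42 to 11.9) at the tandem peak only and 435 (18.8%) at neither. With any of the 12 hexamers, 1696 genes (73.5%) had one at both and 32 (1.39%) at neither.

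Tandem peaks were lower than canonical ends at the median. Tandem peaks had a median of 17 reads (17 to 18), with quartiles of 12 and 25 and a range from 3 to 100. Canonical ends of the same genes had a median of 21 reads and coding-exon peaks 13. A canonical-end peak was present in 2889 of the 3964 genes (72.9%). In 1125 of these (38.9%, 37.2 to 40.7) the tallest tandem peak was higher than the tallest canonical-end peak, in 138 they were equal, and in 250 (8.65%, 7.68 to 9.73) it was at least 2 times as high. The median ratio was 0.895 (0.867 to 0.913). Only the canonical end entered this comparison, and a gene can have a taller peak at another annotated end. Height counts distinct read starts, so it also depends on how scattered the ends are and does not measure site use.

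Of the 1075 genes without a canonical-end peak, 713 had a peak at another annotated end and 362 had none at any annotated end. In 66 of the 1075, a tandem peak itself ran across the canonical end, and in 197 it reached that end's window. TUBB2B, a neuronal beta-tubulin, was of this kind: its peak of 87 reads was 1637 bp wide, whereas the UTR had 477 bases. The tallest peaks of HNRNPDL and MARCKS, the peak of TIMP2 and the last one of SOX11 also ran across the canonical end, so the hexamer before their 3′ edge can be that of the end itself. Without the 214 peaks that reached the window, a choice made after seeing the data, 6381 tandem peaks in 3851 genes were left, with hexamers in 76.1% and AATAAA in 35.3%.

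Genes whose tandem peak was the higher one had hexamers more often at that peak, with a difference at the canonical end that included 0. The tallest tandem peak held AATAAA in 44.1% (40.8 to 47.3) of 892 genes where it was higher than the end and in 31.5% (29.0 to 34.0) of 1309 genes where it was lower, a difference of 12.6 points (8.46 to 16.7). Any hexamer was present in 84.3% and 72.0%, a difference of 12.3 points (8.87 to 15.7). At the canonical end of those genes AATAAA was present in 69.5% and 71.0%, a difference of -1.46 points (-5.38 to 2.40). Stretches with 18 A of 25 after the tandem peak differed by 0.421 points (-1.66 to 2.63). Taller tandem peaks had hexamers more often among all of them, and its part in these differences was not tested.

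**Figure D5:**
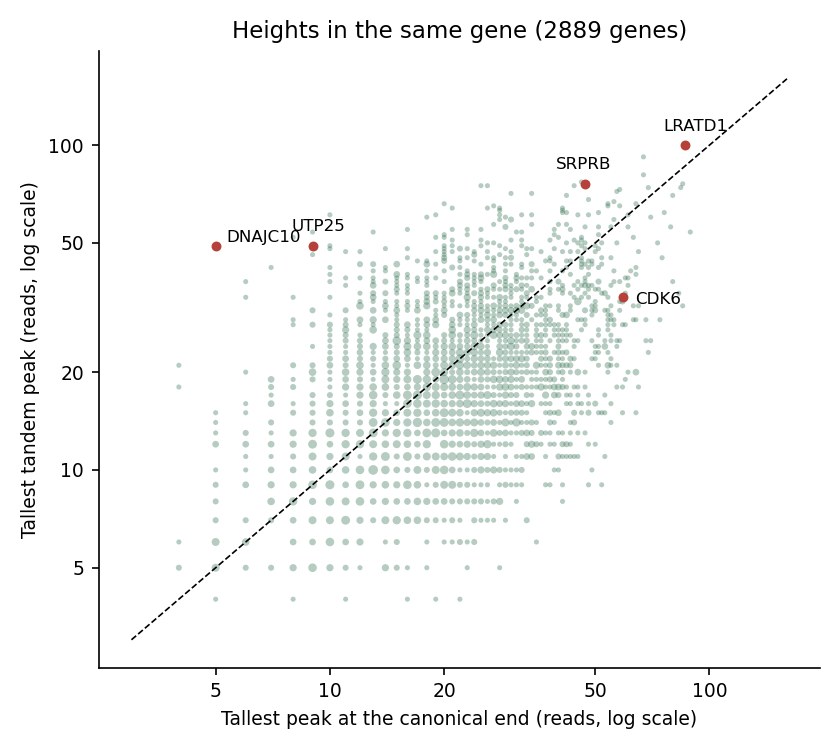
Reads at the tallest tandem peak against reads at the tallest canonical-end peak in 2889 genes, both on log scales, with point area growing with the number of genes at that place and a dashed line at equal heights. Of these genes 38.9% lie above the line, with DNAJC10 at 49 against 5 reads, and CDK6 lies below it at 34 against 59.

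The largest excess was in DNAJC10, a reductase of the endoplasmic reticulum, where the tandem peak 237 bases from the stop codon of a 17335-base UTR had 49 reads and the canonical end had 5 (9.80 times). The AGTAAA shown above started 30 bp before the 3′ edge of this peak, which was 479 bp wide. It lay more than 100 bp downstream of the summit, so it need not be the signal of those 49 reads. ALG14 of the N-glycosylation pathway had 38 against 6 reads (6.33 times), and the endosomal GTPase RAB21 had 54 against 9 (6.00 times). Each of these peaks lay in the first 7% of its UTR. RBM28 and UTP25, of ribosome biogenesis, had 34 against 6 and 49 against 9, both with AATAAA starting 24 bp before the edge. In both, as in DNAJC10, the hexamer lay more than 100 bp downstream of the summit. NALF1 had 43 against 8 reads. METTL14, a subunit of the m6A methyltransferase, had 49 against 10. SLC35E3 and PEX26, already described, were also among the 10 genes with the largest ratios, at 5.25 and 5.11 times. They were named for this ratio among peaks with a hexamer and fewer than 18 A of 25 downstream, so the ratios describe them. As ratios of distinct read starts, they do not measure relative use of the sites.

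The tallest tandem peak with a hexamer was in LRATD1, which had peaks of 100, 90 and 84 reads, against 86 at its canonical end. All 6 tandem peaks of LRATD1 stood on a local background of 31.8 to 38.3 reads, against a median of 1.64 over all tandem peaks, and their fold enrichment was only 1.76 to 2.60. HNRNPDL, an RNA-binding protein, had 88 reads, TUBB2B had 87, and MARCKS, a substrate of protein kinase C, had 81, all in peaks that ran past the canonical end. The other 3 tandem peaks of MARCKS, 558, 1156 and 1709 bases from the stop codon, did not reach it. TSC22D1 and SOX11 had 77 each, and SRPRB, a subunit of the signal recognition particle receptor, had 76 against 47 at its canonical end. SRPRB had the highest fold enrichment of these, 15.4 over a background of 4.01 reads. Only 1.52% of tandem peaks had a local background of 10 reads or more, and those of HNRNPDL, MARCKS, SOX11, HAND2, HNRNPU and CDKN1A were among them.

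A few genes of neuroblastoma identity held some of the tallest tandem peaks. Of 13 transcription factors and regulators with eligible sequence, 5 had one (38.5%, 17.7 to 64.5), where all genes of the same eligible lengths had one in 27.2%. Their 12 tandem peaks had a median of 62 reads, against 17 over all tandem peaks. SOX11, a neural progenitor factor, had 7, with 91 reads at 1414 bases from the stop codon and 47 to 77 at the others. It had no peak at its canonical end, and its last tandem peak, of 62 reads with AATAAA 29 bp before the edge, lay 7084 bases along a UTR of 7341 and ran across the end. HAND2 had 81 reads with no hexamer, against 67 at its end, on a local background of 22.03 reads and with a fold of only 3.56. INSM1 had 57 against 42. Among those with none were MYCN, GATA3, ISL1, LIN28B and GATA2, with 25 to 3128 eligible bases. Of 11 adrenergic markers with eligible sequence, 5 had a tandem peak (45.5%, 21.3 to 72.0), against 16.2% of all genes of the same lengths. Among them were HAND2, STMN2 with 23 reads against 40 at its canonical end, and DBH with 11 against 19. Over all annotated ends the tallest peak had 71 reads in HAND2, 72 in STMN2 and 19 in DBH.

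Among RNA-binding proteins of neurons, tandem peaks were present in 13 of 17 genes (76.5%, 52.7 to 90.4), where 49.99% of all genes of the same eligible lengths had one. Among those with a canonical-end peak the share was 81.8% (52.3 to 94.9), against 58.1%, a value inside the interval. ELAVL1, which encodes the widely expressed Hu protein HuR, had 63 reads 4265 bases from the stop codon against 28 at its canonical end, at a place where genes overlap on both strands. ELAVL3, a neuronal Hu protein, had 64 and 41 reads and no canonical-end peak. CELF1 had 37 against 29, and PUM2, a Pumilio repressor, had 32 against 63. MSI2, ELAVL2 and ELAVL4 also had more reads at the canonical end.

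In the cytoskeleton and growth cone list, 9 of 17 genes had a tandem peak (52.9%, 31.0 to 73.8), against 39.4% of all genes of the same lengths. MAP1B had 61, 59 and 26 reads against 45 at its end. KIF5B, a kinesin heavy chain, had 5 tandem peaks, the tallest with 42 reads against 32, DCX had 27 against 23, and the neurofilament gene NEFL had 56 with no canonical-end peak. MAP2, GAP43 and KIF5C had fewer reads at their tandem peaks than at the end, with 26 against 36, 14 against 39 and 19 against 41.

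Genes known from earlier work to end at several 3′ UTR sites were also counted. Of 24, 16 had a tandem peak (66.7%, 46.7 to 82.0), where 45.1% of all genes of the same eligible lengths had one. Among those with a canonical-end peak the share was 66.7% (43.7 to 83.7), against 51.4%, which lies inside the interval. CCND1, cyclin D1, had 66 and 33 reads against 64 at the end. RHOA had 47 against 36, TIMP2 58 in its single peak, and IGF2BP1 5 peaks of 20 to 40 reads against 31. CDK6 had 7 peaks of 19 to 34 reads, all under the 59 of its end. CDC42, RAB10, CCND2 and HMGA2, each with over 1000 eligible bases, had no tandem peak. A peak near an annotated end inside their UTRs would not have counted as one.

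Of 12 cleavage and polyadenylation factors with eligible sequence, 5 had a tandem peak (41.7%, 19.3 to 68.0), against 39.2% of all genes of the same lengths. WDR33 had 61 reads 344 bases from the stop codon against 32 at its end. The variant AATACA started 33 bp before the 3′ edge of that tandem peak. CSTF2T had 38 against 28 where genes overlap on both strands, CPSF2 had 32 against 12, and CPSF6 had 28 with no canonical-end peak. NUDT21, whose protein favours distal sites, had none in 2580 eligible bases and 31 reads at its end. Of CDK12, CDK13 and cyclin K, 2 of 3 had tandem peaks (20.8 to 93.9%), an interval that includes the 39.3% of all genes of the same lengths. CDK12 had 21 and 16 reads, with ATTAAA and AATAAA, and CDK13 had 12 and 11 reads, with TATAAA and ATTAAA. Neither had a canonical-end peak, and cyclin K (CCNK) had no tandem peak and 15 reads at its end.

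The study's own lists were set beside genes of the same eligible length. Of 76 DNA damage response (DDR) genes with eligible sequence, 33 had a tandem peak (43.4%, 32.9 to 54.6), against 28.0%. Among those with a canonical-end peak the share was 36.8% (25.5 to 49.8), against 31.5%, a value inside the interval. TOPBP1, a checkpoint scaffold, had 45 reads against 26 at the end, and RAD23B had 43 against 25. CUL4A had 39 and no canonical-end peak, and the cell cycle inhibitor CDKN1A had 38 against 58. Of 671 genes that the study assigned to premature cleavage and polyadenylation (PCPA) from nascent RNA, 375 had one (55.9%, 52.1 to 59.6), against 40.8%, and among those with a canonical-end peak 53.7% (49.4 to 57.9), against 47.6%. Its tallest were those of LRATD1, HNRNPU (66 reads against 54), ELAVL3 and WDR33. The excess was smaller among genes with an end peak in both lists. The part of expression level in it was not tested.

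The sequence beyond a tandem peak held regulatory motifs at densities close to those before it. In 3354 genes, a median of 1306.5 UTR bases lay beyond the 3′ edge of the tallest tandem peak on 1 strand and 1448.5 before it. The AU-rich pentamer ATTTA occurred 2.44 times per kb after the edge (2.41 to 2.48) and 2.40 times before it (2.36 to 2.44). The Pumilio element TGTANATA occurred 0.244 (0.232 to 0.256) and 0.237 times (0.225 to 0.249). Hexamer windows were not left out of these counts. Matches on the transcribed strand to the seeds of let-7, miR-17 and miR-34, which respectively act in differentiation, proliferation and the p53 response, were counted as 7-mers. The seeds (bases 2 to 8) are in capitals in the mature sequences from RefSeq.
hsa-let-7a-5p: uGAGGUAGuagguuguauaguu
hsa-miR-17-5p: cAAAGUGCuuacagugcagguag
hsa-miR-34a-5p: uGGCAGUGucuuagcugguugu

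The let-7 match CTACCTC occurred 0.0590 times per kb after the edge and 0.0563 before it, and the miR-17 match GCACTTT 0.188 and 0.191 times, with intervals that overlapped. The miR-34a match CACTGCC occurred 0.0805 times per kb after the edge (0.0739 to 0.0876) and 0.0950 times before it (0.0875 to 0.103), from 543 and 601 matches, and these intervals met at their limits. Sequence beyond the tandem peak held ATTTA in 83.0% of the 3354 genes (81.7 to 84.3), a Pumilio element in 31.5% (29.99 to 33.1) and a let-7 match in 10.4% (9.42 to 11.5). A match is only those letters in the reference and shows no binding.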

How the data were processed

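Poly(A) 3′-seq libraries of IMR-32 cells came from 3 groups of 2 replicates. Per the labels and the study's methods, the authors mapped reads with STAR (version 2.5.1b) to GRCh38, merged all samples and found peaks with MACS2 (version 2.1.1), extending reads to 100 bp. The deposited list has no strand and no value of a library. Deposited for each peak are a fold ratio to local background, a −log10 p-value, a −log10 q-value and the summit offset. MACS2 by default keeps 1 read per position and strand, and another setting is not given in the sources used here. Here, the pileup was solved from the fold and −log10 p (largest misfit 0.000172) and tested on simulated data. UTRs came from Gencode release 44 (the study used 27). A peak in UTRs of several genes (69) went to the gene with the nearest end. Python 3.11.15, pandas 2.3.3, scipy 1.17.1 and pysam 0.24.0 were used. Intervals were Wilson (shares), Newcombe (differences), order-statistic (medians) and Poisson (densities). No test compares groups. The members and lists were chosen with earlier results of these data known. Named genes were the 10 with the most members, the 10 tallest members with a hexamer, the 10 largest ratios to the end and the 4 tallest per list, with further list members for contrast. Some genes that this rule takes are not reported here. Of 162 DDR entries 148 genes were matched, and of 809 PCPA entries 803. Peaks on contigs were not annotated.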

Additional observations from a re-analysis of the deposited data

Results flagged for a closer look

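The list also held 413 peaks on 43 unplaced or unlocalized contigs, which no comparison used since the gene annotation does not name these contigs. Their presence in data outside the comparisons was the reason to list them, and the pooled list has no separate value for the DMSO controls to set them against. They had a median of 10 reads at the summit and a highest of 98.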

How the results depend on the processing

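No paired analysis was possible because samples were merged before peak finding, and no replicate could be left out. Of 95 alternative values, 68 stayed within the interval of the reported value (counts within 1.5 times) and 27 moved. With −log10 q of at least 20 there were 940 tandem peaks in 863 genes (0.0458 per kb), with a median of 36 reads and a median place of 41.8%, a hexamer in 85.8%, AATAAA in 45.2%, 22 A of 25 in 0.121%, and the tandem peak higher in 47.7% of genes. With −log10 q of at least 5, density was 0.278 per kb, median height 19 reads, hexamers 78.5% and AATAAA 37.7%. A transcript-end window from 500 bp before moved the median place to 43.6%, and one of 100 bp either side to 44.04%. Leaving out peaks with 18 A of 25 gave 0.296 per kb, hexamers in 79.0%, AATAAA in 37.7% and, by construction, 22 A of 25 in 0%. Leaving out those with 22 A and no hexamer left 22 A in 0.554%. Leaving out the 214 peaks that reached the canonical-end window, an alternative chosen after seeing the data, gave 0.311 per kb and a median place of 45.9%. Merging peaks closer than 200 bp gave 0.284 per kb. Hexamers fell to 58.6% with a window of 10 to 40 bp, 44.1% with a window ending at the summit and 49.5% with AATAAA and ATTAAA alone. A stretches rose to 7.47% with 18 A of 25. The share of genes with the higher tandem peak was 39.01% by the deposited fold.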
